A study of Mus musculus with 12 samples.

Results

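The 48 genes described here drive or carry out cell division, and they were taken by name from the table of all genes: 5 of G1/S control, 17 of DNA replication, 6 of G2/M control and 20 of mitosis. All 48 are among the 28036 genes of the table, and 40 of them are among the 13988 genes with enough counts to be tested. The 8 too low to test were Chek1, Cdc6, Mybl2, Nusap1, Cenpf, Bub1, Aurkb and Cenpe. Liver RNA came from 12 mice of the inbred strain C57BL/6J, 3 in each of 4 groups. Controls were fed normal chow and given 0.5% CMC-Na, a thickener used as vehicle, by mouth. MASH mice received the same vehicle and had a fatty liver disease with inflammation (metabolic dysfunction-associated steatohepatitis) induced by a high-fat diet. Mice with the same diet-induced MASH were given Eleutheroside E (EE, a plant lignan glycoside) at 100 mg/kg or resmetirom at 3 mg/kg, which activates the beta form of the thyroid hormone receptor. The model ran for 8 weeks before dosing and dosing lasted 4 weeks. The sources used here give neither the age and sex of the mice nor the vehicle of both drugs.

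Cells enter the division cycle when cyclin D and cyclin E kinases release the E2F transcription factors, which switch on the genes that license and copy DNA. A later wave of transcription, held back by the DREAM complex in resting cells and carried by MuvB, B-Myb and FoxM1 in dividing ones, switches on cyclin B and the machinery of mitosis. In adult liver, most hepatocytes rest outside the cycle and return to it after loss of tissue or injury, while immune cells and fibroblast-like cells in the liver can divide as well. Levels are given as CPM (counts relative to the library total, after TMM scaling of that total), and 3 values in a row are replicates 1, 2 and 3. Fold changes are log2 values from edgeR's quasi-likelihood test, and an adjusted p had to lie below 0.05 over all tested genes. The sources used here do not say whether the livers of a group came from separate cages or litters, so p-values measure the spread between these livers.

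Libraries held 17297864 to 21793311 counts, and 1 CPM stood for 9.95 to 26.0 counts, depending on the liver. Several livers stood apart. The share of mitochondrial transcripts was 35.4% in control 1 and 2.40% to 4.38% elsewhere, and control 1 was the liver with the lowest value of 21 of the 48 genes. The share of major urinary protein transcripts, which hepatocytes make in large amounts, was 35.7% in resmetirom 2 and 3.33% to 16.0% elsewhere. Resmetirom 1 (library name RE1) is given apart from resmetirom 2 (RE8) and resmetirom 3 (RE9) throughout. All 12 hepatocyte markers were detected in all livers.

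Per kilobase of exon, G1/S and replication genes were more abundant than G2/M and mitosis genes. In MASH livers the medians were 0.869 CPM per kilobase for G1/S, 0.827 for replication, 0.144 for G2/M and 0.142 for mitosis genes. The highest single levels on this scale were those of Pcna, the sliding clamp of DNA polymerase, at 8.39 CPM per kilobase and Ccnd1 (cyclin D1) at 7.70. The lowest was Cenpf, a kinetochore protein, at 0.0120. Many mitosis genes therefore rest on few reads: Ccnb1 had 0, 4 and 6 counts in the control livers, 8, 8 and 24 in MASH, 3, 7 and 6 in EE, and 356, 19 and 10 in resmetirom. The gene table also names the copies Ccnb1-ps, Ccnb2-ps, Pcna-ps1, Pcna-ps2 and Tyms-ps, with which these genes could share reads.

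The widest difference among the 12 livers lay inside the resmetirom group. All 26 mitosis and G2/M genes had their highest value in resmetirom 1, from 1.46 to 14.9 times the next highest liver. Over all 48 genes, 37 were highest in resmetirom 1, made up of the 26, Ccnd1 and 10 of 17 replication genes. A further 6 were highest in resmetirom 2. The share of all genes that peak in either liver was not computed, so these counts of peaks have no background here. Resmetirom 1 was also set against the mean log2 level (of CPM plus 0.05) of resmetirom 2 and resmetirom 3. On that scale 20 of 40 tested genes lay at least 4-fold higher in resmetirom 1, against 3.94% of all tested genes. By role these were 14 of 15 mitosis, 4 of 5 G2/M, 2 of 15 replication and 0 of 5 G1/S genes. A single liver has no replicate, so these are values of that liver with no test.

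**Figure D1:**
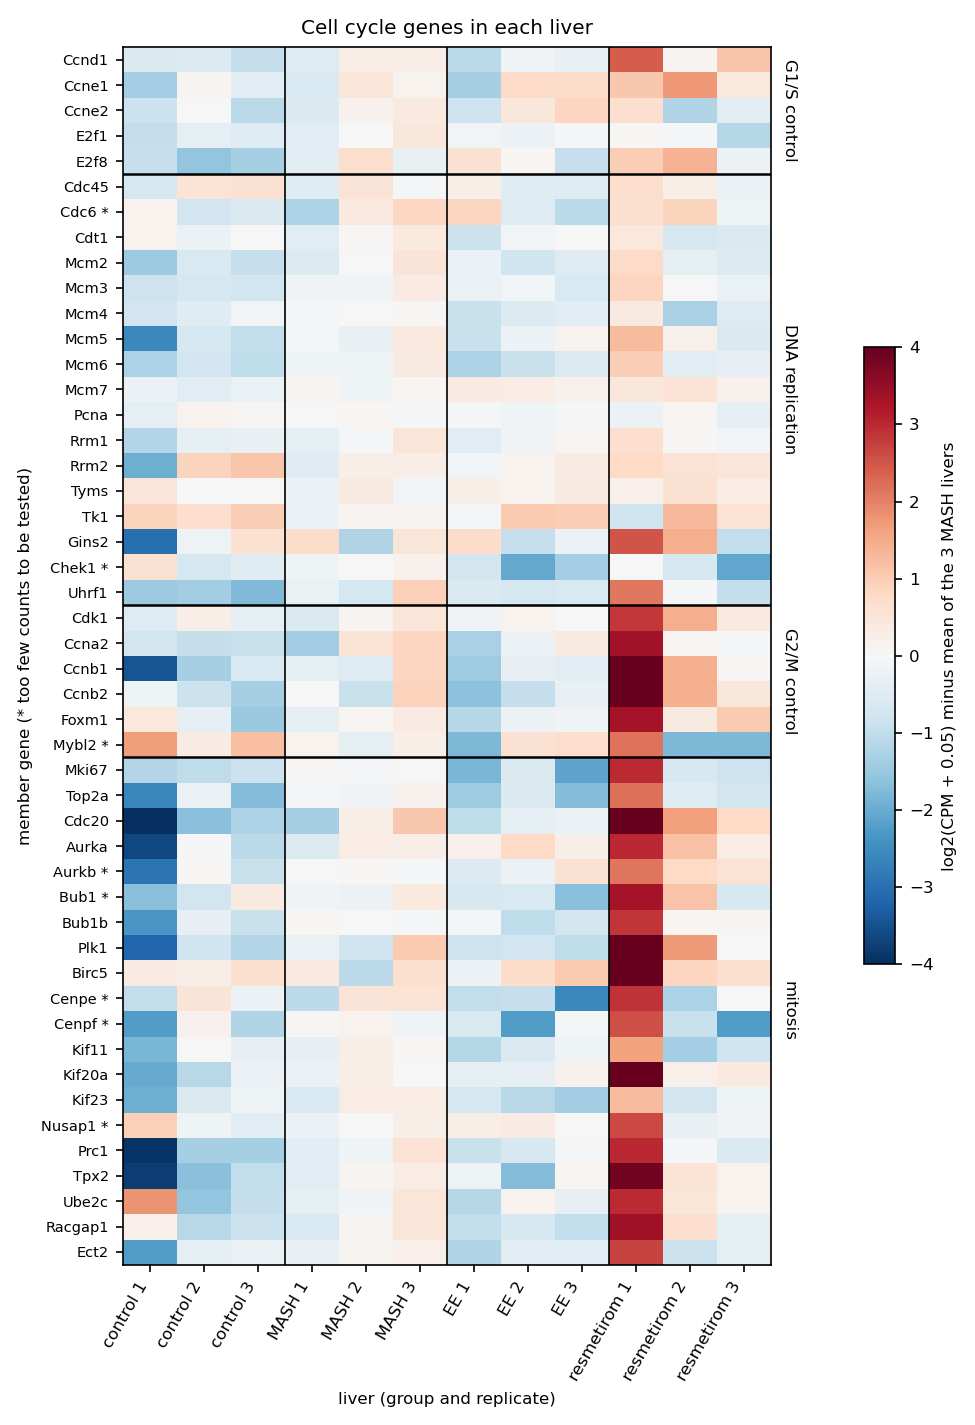
Each row is a gene, each column a liver, and colour is the log2 of CPM plus 0.05 minus the mean of the 3 MASH livers, with the scale ending at 4 in either direction. The lower blocks (G2/M control and mitosis) are deep red in resmetirom 1, where all 26 genes peak, and the upper blocks vary less.

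The G2/M genes include the cyclins and the kinase that start mitosis. Ccnb1 (cyclin B1) stood at 0, 0.169 and 0.304 CPM in control livers, 0.378, 0.335 and 0.937 in MASH, 0.154, 0.381 and 0.346 in EE and 13.7, 1.42 and 0.513 in resmetirom. Ccna2 (cyclin A2) stood at 0.402, 0.338 and 0.355 CPM in control livers, 0.236, 1.04 and 1.33 in MASH, 0.257, 0.599 and 0.923 in EE and 7.78, 0.749 and 0.666 in resmetirom. Cdk1, the kinase that these cyclins activate, stood at 0.502, 0.888 and 0.558 CPM in control livers, 0.473, 0.794 and 1.05 in MASH, 0.667, 0.817 and 0.75 in EE and 5.58, 2.1 and 0.974 in resmetirom. In each case resmetirom 1 was far above the other 11 livers, and for Ccnb1 and Cdk1 resmetirom 2 was second. Foxm1, a transcription factor of the mitotic wave, had 0.704, 0.381 and 0.152 CPM in control livers, 0.378, 0.544 and 0.664 in MASH, 0.205, 0.436 and 0.462 in EE and 5.58, 0.674 and 1.13 in resmetirom. Mybl2 (B-Myb) had few counts in all livers, with 0.502, 0.169 and 0.355 CPM in control livers, 0.142, 0.0836 and 0.156 in MASH, 0, 0.218 and 0.231 in EE and 0.732, 0 and 0 in resmetirom, and 19 counts in resmetirom 1 against 0 to 7 elsewhere.

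The mitosis genes include markers of dividing cells and parts of the spindle, and all were highest in resmetirom 1. Mki67, the antigen used to stain dividing cells, stood at 0.603, 0.676 and 0.761 CPM in control livers, 1.47, 1.34 and 1.45 in MASH, 0.359, 0.926 and 0.289 in EE and 11.5, 0.899 and 0.769 in resmetirom. Top2a, which untangles sister chromosomes, stood at 0.201, 1.23 and 0.406 CPM in control livers, 1.42, 1.34 and 1.68 in MASH, 0.513, 0.98 and 0.404 in EE and 6.93, 1.05 and 0.871 in resmetirom. Both were low in resmetirom 2 and resmetirom 3, below all 3 MASH livers. Plk1, a kinase of spindle assembly, stood at 0, 0.211 and 0.152 CPM in control livers, 0.331, 0.209 and 0.898 in MASH, 0.205, 0.218 and 0.173 in EE and 7.86, 1.42 and 0.41 in resmetirom. Birc5 (survivin), a subunit of the chromosomal passenger complex, stood at 0.402, 0.381 and 0.507 CPM in control livers, 0.426, 0.126 and 0.508 in MASH, 0.257, 0.544 and 0.693 in EE and 6.2, 0.599 and 0.513 in resmetirom. Aurkb, the kinase of that complex, stood at 0, 0.338 and 0.152 CPM in control livers, 0.331, 0.335 and 0.312 in MASH, 0.205, 0.272 and 0.519 in EE and 1.62, 0.599 and 0.513 in resmetirom. All 3 were highest in resmetirom 1, and for Birc5 the other 11 livers lay between 0.126 and 0.693 CPM. Cenpf stood at 0, 0.211 and 0.0508 CPM in control livers, 0.189, 0.209 and 0.156 in MASH, 0.103, 0 and 0.173 in EE and 1.35, 0.0749 and 0 in resmetirom, with at most 5 counts in any liver but resmetirom 1, which had 35. Ect2, which sets the cleavage furrow of cytokinesis, stood at 0.201, 0.846 and 0.914 CPM in control livers, 0.899, 1.21 and 1.29 in MASH, 0.462, 0.817 and 0.808 in EE and 7.55, 0.599 and 0.871 in resmetirom. The other 13 mitosis genes peaked in the same liver, and the steepest, named for that after its values were seen, was Kif20a, a motor of cytokinesis, at 19.1 CPM in resmetirom 1 and at most 1.28 CPM in any other liver.

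Replication genes differed less between the resmetirom livers. Mcm2, a subunit of the helicase that opens replication origins, stood at 1.51, 2.71 and 2.18 CPM in control livers, 2.84, 4.26 and 6.01 in MASH, 3.54, 2.4 and 2.89 in EE and 7.2, 3.15 and 2.87 in resmetirom. Its partner Mcm6 stood at 1.91, 2.71 and 2.28 CPM in control livers, 4.12, 4.06 and 6.01 in MASH, 1.9, 2.5 and 3.17 in EE and 9.24, 3.45 and 3.69 in resmetirom. For both, resmetirom 1 was highest, ahead of MASH 3. Uhrf1, which carries DNA methylation through replication, stood at 0.201, 0.211 and 0.152 CPM in control livers, 0.52, 0.376 and 1.29 in MASH, 0.411, 0.381 and 0.404 in EE and 2.93, 0.599 and 0.308 in resmetirom. Cdc6, a loader of that helicase, was too low to test at 0.201, 0.0846 and 0.102 CPM in control livers, 0.0473, 0.251 and 0.351 in MASH, 0.359, 0.109 and 0.0577 in EE and 0.308, 0.375 and 0.154 in resmetirom, with at most 9 counts in a liver. Enzymes of nucleotide supply and the clamp did not share 1 pattern. Rrm1, a subunit of ribonucleotide reductase, stood at 3.92, 6.89 and 7.11 CPM in control livers, 6.67, 8.28 and 12.4 in MASH, 6.57, 8.06 and 9.35 in EE and 14.1, 9.06 and 8.15 in resmetirom, and was highest in resmetirom 1. Pcna stood at 15.8, 22.1 and 20.7 CPM in control livers, 19.7, 21.3 and 19.4 in MASH, 19.1, 18.0 and 19.0 in EE and 17.0, 21.4 and 15.4 in resmetirom. Rrm2, the other subunit of ribonucleotide reductase, stood at 1.1, 8.33 and 9.59 CPM in control livers, 3.17, 5.18 and 5.35 in MASH, 4.11, 4.9 and 5.66 in EE and 7.78, 6.59 and 6.25 in resmetirom. Tyms (thymidylate synthase) stood at 6.73, 4.82 and 4.82 CPM in control livers, 4.07, 6.11 and 4.41 in MASH, 5.65, 5.23 and 6.18 in EE and 5.51, 7.34 and 5.89 in resmetirom. In Pcna, Rrm2 and Tyms resmetirom 1 was not the highest liver. Tk1 (thymidine kinase 1), which salvages thymidine, was lowest of all in resmetirom 1, and stood at 16.3, 13.9 and 17.4 CPM in control livers, 7.38, 9.49 and 9.45 in MASH, 8.47, 18.2 and 17.2 in EE and 4.97, 21.4 and 13.2 in resmetirom.

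The G1/S genes were split as well. Ccnd1, the cyclin that growth signals induce, stood at 23.7, 24.3 and 18.2 CPM in control livers, 24.4, 41.8 and 42.5 in MASH, 16.7, 31.8 and 28.3 in EE and 187, 37.7 and 77.5 in resmetirom. Ccne1 (cyclin E1) stood at 0.402, 1.18 and 0.812 CPM in control livers, 0.71, 1.55 and 1.21 in MASH, 0.411, 1.91 and 1.85 in EE and 2.39, 3.82 and 1.49 in resmetirom. Ccne2 (cyclin E2) stood at 0.301, 0.592 and 0.254 CPM in control livers, 0.378, 0.669 and 0.781 in MASH, 0.308, 0.817 and 1.1 in EE and 0.963, 0.225 and 0.41 in resmetirom. Ccnd1 was thus highest in resmetirom 1 and next highest in resmetirom 3, Ccne1 was highest in resmetirom 2, and Ccne2 in EE 3. E2f1, an activating E2F factor, stood at 2.01, 2.96 and 2.74 CPM in control livers, 2.84, 3.97 and 5.35 in MASH, 3.64, 3.32 and 3.69 in EE and 4.04, 3.75 and 1.74 in resmetirom. E2f8, a repressing E2F factor active in hepatocytes that become polyploid, stood at 2.31, 1.44 and 1.73 CPM in control livers, 3.31, 7.28 and 3.59 in MASH, 6.78, 4.63 and 2.31 in EE and 8.78, 11.6 and 3.79 in resmetirom. E2f8 was low in all 3 control livers and peaked in resmetirom 2.

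Taking the median over the tested genes of a role, as log2 differences from the MASH mean, resmetirom 1 stood at 3.37 for G2/M, 3.01 for mitosis, 0.98 for G1/S and 0.69 for replication. Resmetirom 2 and resmetirom 3 stood at 1.43 and 0.38 for G2/M, 0.22 and 0.02 for mitosis, 0.10 and −0.22 for G1/S, and 0.09 and −0.33 for replication. Over all tested genes the same median lay between −0.06 and 0.03 in every liver. Control livers stood at −2.22, −0.80 and −0.91 for mitosis and EE livers at −0.90, −0.59 and −0.33, while the lowest MASH liver stood at −0.33. The mitosis median of all 3 control livers, EE 1 and EE 2 thus lay below that of every MASH liver, and EE 3 was level with the lowest.

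**Figure D2:**
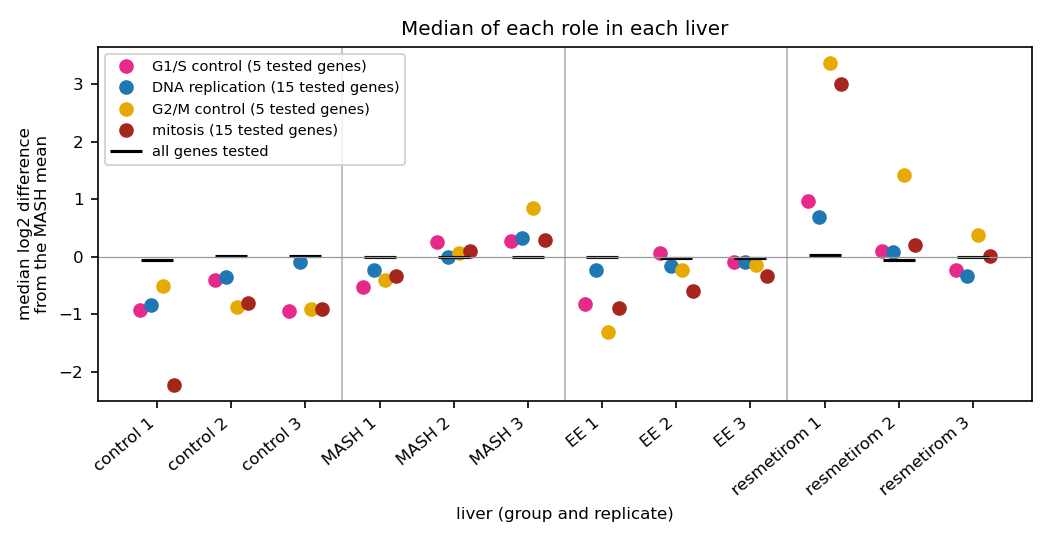
The x axis gives the 12 livers and the y axis the median log2 difference from the mean of the MASH livers, with a dot for each role and a bar for all tested genes. Mitosis and G2/M dots reach 3.01 and 3.37 in resmetirom 1, while the bars for all genes stay near 0 in every liver.

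Markers of some other cell types also stood high in resmetirom 1, and those of others did not. The summed level of 12 monocyte and macrophage markers, 11 of them detected in every liver, was 282 CPM in resmetirom 1. It was 72.6 and 74.5 CPM in resmetirom 2 and resmetirom 3, 39.0 to 73.9 in control, 85.7 to 132 in MASH and 65.5 to 79.5 in EE livers. The sum of 14 stellate cell and fibroblast markers (13 in every liver) was 758 CPM there, against 200 and 234 in the other resmetirom livers, 207 to 292 in control, 272 to 320 in MASH and 161 to 226 in EE. The 10 Kupffer cell markers (all in every liver) summed to 930 CPM, against 533 and 513 in the other resmetirom livers, 243 to 649 in control, 486 to 655 in MASH and 777 to 871 in EE. Acta2, Tagln and Des of the stellate list and Folr2, C6 and Cd163 of the Kupffer list were higher in another liver. The 12 hepatocyte markers summed to 67260 CPM in resmetirom 1, the lowest of all, against 91760 CPM or more in the other 11 livers. Alb alone gave 38770 CPM of it. The median log2 difference of this list from the MASH mean was also lowest there, at −0.416. Ahsg, Tat and Cps1 lay above their MASH mean, and the other hepatocyte markers below it. None of these lists held a marker at 0 in all livers. T and NK cell markers (12) summed to 10.9 CPM in resmetirom 1 and 4.21 to 21.7 elsewhere, and endothelial markers (12) to 424 and 192 to 486. B and plasma cell markers summed to 49.6 CPM there, against 158 and 114 in resmetirom 2 and resmetirom 3. Erythroid markers summed to 938 CPM, against 3767 in control 1, and neutrophil markers to 4.78, against 19.5 in control 1. Cholangiocyte markers summed to 65.9 CPM, against 77.3 in MASH 1, and adipocyte markers to 9.09, against 59.8 in MASH 2. The part of other cells in the high values of the cell cycle genes was not tested, and in tissue RNA more cells of a type and more RNA per cell cannot be told apart.

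Promoters were compared because the mitosis and replication genes separated in resmetirom 1. Of the 48 genes, 39 matched RefSeq promoter windows (43 windows on GRCm38.p6), each from 250 bases before to 50 bases after a start. Windows were searched on both strands. The box bound by NF-Y was searched as CCAAT. The CHR element bound by MuvB complexes was searched as TTTGAA and also as TTCGAA. The E2F words searched were TTCCCGC as well as TTGGCGC, together with TTCGCGC and also TTGCCGC, and they can overlap each other or a CCAAT box. CHR words were in 16 of 19 mitosis windows, 2 of 4 G2/M windows and 3 of 17 replication windows, against 19.2% of 32851 promoter windows of all genes. E2F words were in 3 of 19 mitosis windows, 2 of 4 G2/M windows and 12 of 17 replication windows, against 9.57% of all. CCAAT was in 17 of 19 mitosis windows and 12 of 17 replication windows, against 37.4% of all. Windows are not genes: the 19 mitosis windows belong to 17 genes and the 17 replication windows to 15. Ect2 and Prc1 each entered more than once, through overlapping windows that hold the same words. A match is a description of letters, not a bound site, and these gene groups are known for these elements.

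The 6 windows below were picked by hand as examples, after their matches and the values of the genes had been seen, and they run from 120 bases before to 20 bases after the start. Capitals mark the matched words on either strand, so that a CCAAT box on the other strand reads ATTGG, and matches outside the printed stretch are not shown. The G2/M and mitosis genes shown have a CHR word and CCAAT boxes: Cdc20 (chr4:118437324-118437463, minus strand), Ccnb2 (chr9:70421535-70421674, minus strand) and Cdk1 (chr10:69352893-69353032, minus strand).
Cdc20: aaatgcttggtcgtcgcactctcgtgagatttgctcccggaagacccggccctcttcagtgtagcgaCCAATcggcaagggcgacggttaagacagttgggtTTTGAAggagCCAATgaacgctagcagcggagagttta
Ccnb2: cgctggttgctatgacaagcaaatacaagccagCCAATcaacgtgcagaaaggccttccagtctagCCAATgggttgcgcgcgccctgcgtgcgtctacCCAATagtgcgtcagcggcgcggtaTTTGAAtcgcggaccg
Cdk1: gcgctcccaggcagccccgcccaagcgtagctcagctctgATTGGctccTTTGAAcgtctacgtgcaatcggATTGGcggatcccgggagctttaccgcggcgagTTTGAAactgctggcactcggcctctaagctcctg
All 3 peaked in resmetirom 1, by 2.66 to 9.04 times the next highest liver. The replication genes Mcm6 (chr1:128359686-128359825, minus strand) and Rrm1 (chr7:102441575-102441714, plus strand) have E2F words beside CCAAT boxes and peaked in resmetirom 1 as well, by 1.54 and 1.14 times the next liver. Tk1 (chr11:117825995-117826134, minus strand), lowest in resmetirom 1, has no match.
Mcm6: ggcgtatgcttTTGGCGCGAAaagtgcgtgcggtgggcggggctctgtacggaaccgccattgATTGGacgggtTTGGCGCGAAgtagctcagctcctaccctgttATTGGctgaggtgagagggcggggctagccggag
Rrm1: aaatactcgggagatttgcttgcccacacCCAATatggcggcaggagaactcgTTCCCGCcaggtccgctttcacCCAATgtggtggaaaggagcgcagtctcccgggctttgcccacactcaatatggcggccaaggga
Tk1: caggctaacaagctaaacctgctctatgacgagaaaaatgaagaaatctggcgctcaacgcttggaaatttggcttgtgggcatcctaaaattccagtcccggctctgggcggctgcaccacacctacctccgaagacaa
The split is not clean, as genes chosen after their values were seen show. Birc5 and Nusap1 also peaked in resmetirom 1 without a match in their windows. Mcm2 has a CHR word and no E2F word, and Mki67, Ect2 and Cdk1 have both. The E2F words of Cdk1 lie at −178 and −130 from the start, outside its printed stretch.

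**Figure D3:**
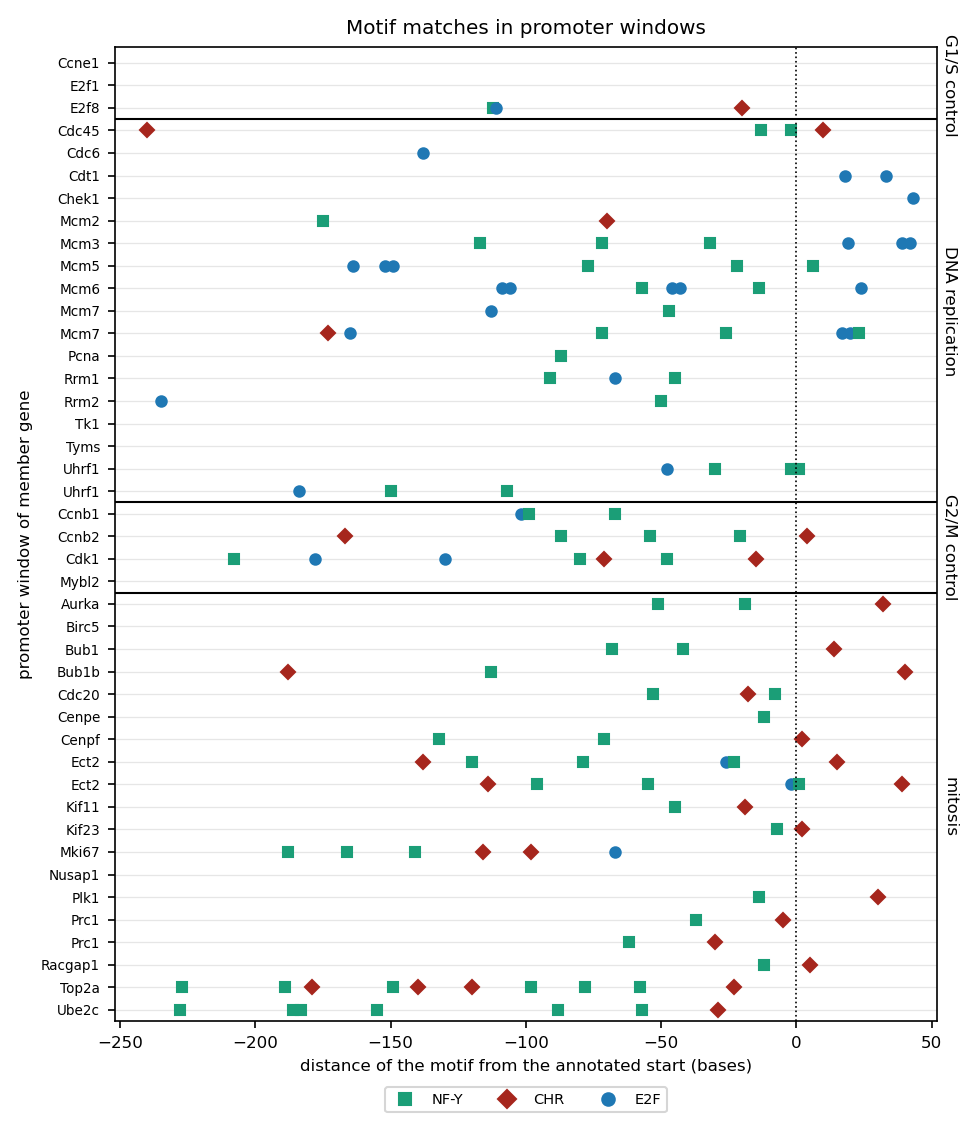
Each row is a promoter window of a gene, ordered by role, the x axis is the distance in bases from the annotated start (dotted line), and symbols mark the first base of NF-Y, CHR and E2F words. CHR diamonds lie mostly in the mitosis rows (16 of 19) and E2F circles mostly in the replication rows (12 of 17).

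The comparison of MASH with control livers asks what the diet model did to these genes. Most were somewhat higher in MASH, but none passed the test. The log2 fold change was above 0 in 34 of the 40 genes, and its median was 0.72 against −0.02 over all tested genes. In 15 genes every MASH liver lay above every control liver, against 10.2% of all genes, and in Tk1 every MASH liver lay below. E2f8 stood at 4.73 ± 2.21 against 1.82 ± 0.445 CPM (SD, n = 3 each), a log2 fold change of 1.40 ± 0.50 (SE, edgeR adjusted p = 0.512). Mcm6 stood at 4.73 ± 1.11 against 2.3 ± 0.398 CPM (SD, n = 3 each), a log2 fold change of 1.03 ± 0.39 (SE, edgeR adjusted p = 0.519). Mcm3, another helicase subunit, stood at 4.75 ± 0.995 against 2.75 ± 0.117 CPM (SD, n = 3 each), a log2 fold change of 0.79 ± 0.32 (SE, edgeR adjusted p = 0.521). For these 3 the groups did not overlap, yet the adjusted p is far from the threshold. Mcm2 stood at 4.37 ± 1.59 against 2.13 ± 0.601 CPM (SD, n = 3 each), a log2 fold change of 1.01 ± 0.41 (SE, edgeR adjusted p = 0.521). Mki67 stood at 1.42 ± 0.0686 against 0.68 ± 0.0792 CPM (SD, n = 3 each) with no overlap (log2 fold change 1.04 ± 0.89 SE, edgeR adjusted p = 0.747).

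By role, the medians of MASH against control were 1.07 for G2/M, 0.95 for mitosis, 0.65 for G1/S and 0.40 for replication genes. The helicase subunits Mcm2, Mcm3, Mcm4, Mcm5 and Mcm6 were among the genes without overlap. In edgeR 0 of the 40 passed, with 6 higher at an unadjusted p below 0.05 (3.15% of all genes), and 0.0143% of all genes passed in either direction. DESeq2 and limma voom also called 0 of the 40, and DESeq2 called 0.622% of all genes.

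EE against MASH addresses the effect of the compound in the disease model. The genes lay mostly lower in EE livers, and again none passed. The median was −0.47 against −0.02 over all tested genes, and 32 of 40 were negative. In 8 genes every EE liver lay below every MASH liver, against 15.5% of all genes, so the share of separated genes was near the background. Mcm6 stood at 2.53 ± 0.638 against 4.73 ± 1.11 CPM (SD, n = 3 each), a log2 fold change of −0.91 ± 0.39 (SE, edgeR adjusted p = 0.637). Kif23, a motor of the central spindle, stood at 0.233 ± 0.0687 against 0.555 ± 0.194 CPM (SD, n = 3 each), a log2 fold change of −1.23 ± 0.67 (SE, edgeR adjusted p = 0.733). Mcm4 stood at 2.57 ± 0.428 against 3.96 ± 0.178 CPM (SD, n = 3 each), a log2 fold change of −0.62 ± 0.37 (SE, edgeR adjusted p = 0.762). All 3 were lower in each EE liver than in each MASH liver. Mki67 and Top2a were also lower without overlap, at 0.524 ± 0.349 against 1.42 ± 0.0686 CPM and 0.632 ± 0.306 against 1.48 ± 0.178 CPM. Tk1 went the other way, at 14.6 ± 5.37 against 8.77 ± 1.21 CPM (SD, n = 3 each), with overlap (log2 fold change 0.74 ± 0.43 SE, edgeR adjusted p = 0.755).

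In this comparison edgeR called 0 of the 40 genes, with 1 lower at an unadjusted p below 0.05 (5.15% of all genes), and 0.00715% of all genes passed in either direction. DESeq2 called 0 of the 40 and 0.2% of all genes, and limma voom 0 of the 40. By role the medians were −0.64 for mitosis, −0.57 for G2/M, −0.28 for replication and −0.05 for G1/S genes. Mcm7, a helicase subunit, was higher in each EE liver than in each MASH liver, at 13.0 ± 0.677 against 10.8 ± 1.13 CPM.

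EE against control compares treated diseased livers with healthy ones. The median of the 40 genes was 0.21 against −0.06 over all tested genes. Mcm7 stood at 13.0 ± 0.677 against 8.71 ± 0.71 CPM (SD, n = 3 each), a log2 fold change of 0.58 ± 0.18 (SE, edgeR adjusted p = 0.166). E2f8 stood at 4.57 ± 2.23 against 1.82 ± 0.445 CPM (SD, n = 3 each), a log2 fold change of 1.35 ± 0.50 (SE, edgeR adjusted p = 0.226). Mcm7 was higher in every EE liver, while E2f8 overlapped. Mcm5, a helicase subunit, and Aurka, a kinase of spindle poles, had log2 fold changes of 0.92 ± 0.53 and 1.37 ± 0.84 (SE; edgeR adjusted p = 0.407 and 0.431). In edgeR 0 of the 40 passed (0.1% of all genes in either direction), 2 were higher at an unadjusted p below 0.05 (5.13% of all genes), and 7 were higher without overlap (13.7% of all genes). DESeq2 called 1, Mcm7, and 4.21% of all genes, and limma voom called 0.

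Mitosis genes lay higher in resmetirom than in MASH livers, which rested on 1 liver, and none passed the test. The median of the 40 genes was 1.07 against 0.06 over all tested genes, and 35 were positive. Without resmetirom 1 the median was 0.12, with 21 of 40 positive, against −0.03 over all genes. Cdc20, the activator of the anaphase-promoting complex, stood at 23.0, 2.55 and 1.38 CPM in resmetirom livers and 0.284, 0.920 and 1.72 in MASH. Its difference was log2 fold change 3.19 ± 0.96 SE, edgeR adjusted p = 0.155, and without resmetirom 1 it was 0.98 ± 0.70 (SE). Cdk1 had log2 fold change 1.90 ± 0.57 SE, edgeR adjusted p = 0.155, and 0.95 ± 0.47 without that liver. Ccnb2 (cyclin B2) had log2 fold change 2.92 ± 0.89 SE, edgeR adjusted p = 0.158, and 0.86 ± 0.63 without it. Ccnb1 had log2 fold change 3.24 ± 1.02 SE, edgeR adjusted p = 0.17, and 0.77 ± 0.74 without it. The groups overlapped in all 4 genes.

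**Figure D4:**
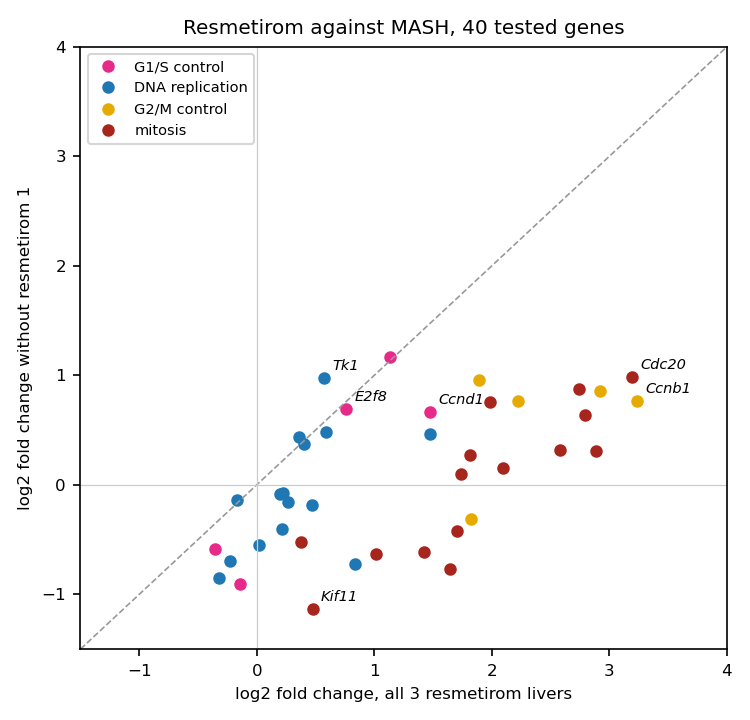
Each dot is a tested gene, with the log2 fold change of resmetirom against MASH from all livers on the x axis, the same without resmetirom 1 on the y axis, colours for roles and a dashed line of equality; the labelled genes were picked by hand. Mitosis and G2/M dots lie far below the line (medians 1.81 and 2.23 on the x axis, 0.15 and 0.77 on the y axis), and Tk1 lies above it.

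By role, the medians with all livers were 2.23 for G2/M, 1.81 for mitosis, 0.76 for G1/S and 0.27 for replication genes. Without resmetirom 1 they were 0.77, 0.15, 0.67 and −0.14. Kif11, a spindle motor, moved from 0.48 to −1.13, Mki67 from 1.65 to −0.77 and Ccna2 from 1.82 to −0.31. Tk1 moved from 0.58 to 0.97. In edgeR 0 of the 40 genes passed, against 0.665% of all genes in either direction. At an unadjusted p below 0.05, 14 were higher (8.18% of all genes), and 5 were higher without overlap (11.6% of all genes). Without resmetirom 1, only Tk1 was higher at an unadjusted p below 0.05, against 10.9% of all genes. DESeq2 called 5 (Ccnb1, Ccnb2, Ccnd1, Cdc20 and Cdk1; 4.7% of all genes in either direction), and limma voom 0.

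Resmetirom against control was the comparison in which genes of the 48 passed. Of the 40 genes 7 rose and 0 fell, against 1.41% of all genes that rose. The 7 cover every role: Ccnd1 (ENSMUSG00000070348) and E2f8 (ENSMUSG00000046179) of G1/S control, Mcm7 (ENSMUSG00000029730) of replication, Ccnb1 (ENSMUSG00000041431) of G2/M, and Cdc20 (ENSMUSG00000006398), Plk1 (ENSMUSG00000030867) and Tpx2 (ENSMUSG00000027469), a spindle assembly factor, of mitosis. Cdc20 stood at 8.99 ± 12.2 against 0.172 ± 0.156 CPM (SD, n = 3 each), a log2 fold change of 5.48 ± 1.16 (SE, edgeR adjusted p = 0.0318). Ccnd1 stood at 101 ± 77.3 against 22.1 ± 3.34 CPM (SD, n = 3 each), a log2 fold change of 2.19 ± 0.49 (SE, edgeR adjusted p = 0.0372). E2f8 stood at 8.06 ± 3.96 against 1.82 ± 0.445 CPM (SD, n = 3 each), a log2 fold change of 2.16 ± 0.51 (SE, edgeR adjusted p = 0.0437). In these 3, every resmetirom liver lay above every control liver. Plk1 had log2 fold change 4.47 ± 1.08 SE, edgeR adjusted p = 0.0466. Ccnb1 had log2 fold change 4.83 ± 1.18 SE, edgeR adjusted p = 0.048, and Tpx2 had log2 fold change 4.45 ± 1.09 SE, edgeR adjusted p = 0.0497. In control livers Cdc20 had 0, 5 and 6 counts, Plk1 0, 5 and 3, and Ccnb1 and Tpx2 each 0, 4 and 6. The size of the fold changes of these mitosis and G2/M genes therefore rests on few control reads. Mcm7 had the smallest spread, at 14.9, 16.0 and 12.2 CPM in resmetirom livers and 9.25, 7.91 and 8.98 in control livers (log2 fold change 0.72 ± 0.18 SE, edgeR adjusted p = 0.0494).

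None of the 7 passed without resmetirom 1, when 3.25% of all genes did in either direction. Their log2 fold changes (± SE) were then 3.27 ± 0.81 for Cdc20, 2.61 ± 0.87 for Plk1, 2.37 ± 0.83 for Ccnb1, 2.19 ± 0.77 for Tpx2, 2.09 ± 0.56 for E2f8, 1.39 ± 0.36 for Ccnd1 and 0.69 ± 0.19 for Mcm7, with edgeR adjusted p of 0.0551 for Cdc20 to 0.126 for Ccnb1 and Tpx2. E2f8 and Mcm7 moved least when that liver was left out, and the mitosis and G2/M genes moved most. Leaving out 1 other liver gave 0 calls for control 2, control 3, MASH 2, EE 1, EE 2 and EE 3, 1 for MASH 1 and MASH 3, 2 for control 1, 4 for resmetirom 2 and 14 for resmetirom 3. With both control 1 and resmetirom 1 left out, 4 passed (Ccnd1, Cdc20, E2f8 and Mcm7). Apart from the fit without resmetirom 1, the share of all genes called is not given, so these counts have no background here.

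Over the 40 genes the median of resmetirom against control was 2.00, and 0.66 without resmetirom 1, against 0.02 and −0.04 over all tested genes. At an unadjusted p below 0.05, 27 were higher (11% of all genes), and 23 were higher without overlap (9.93% of all genes). Without resmetirom 1, 13 were higher at an unadjusted p below 0.05, against 10.7% of all genes. DESeq2 called 18 of the 40 and 11% of all genes in either direction, and limma voom called 0. Without resmetirom 1, 32 of 40 remained positive, with medians of 1.24 for G2/M, 1.39 for G1/S, 0.81 for mitosis and 0.47 for replication genes.

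**Figure D5:**
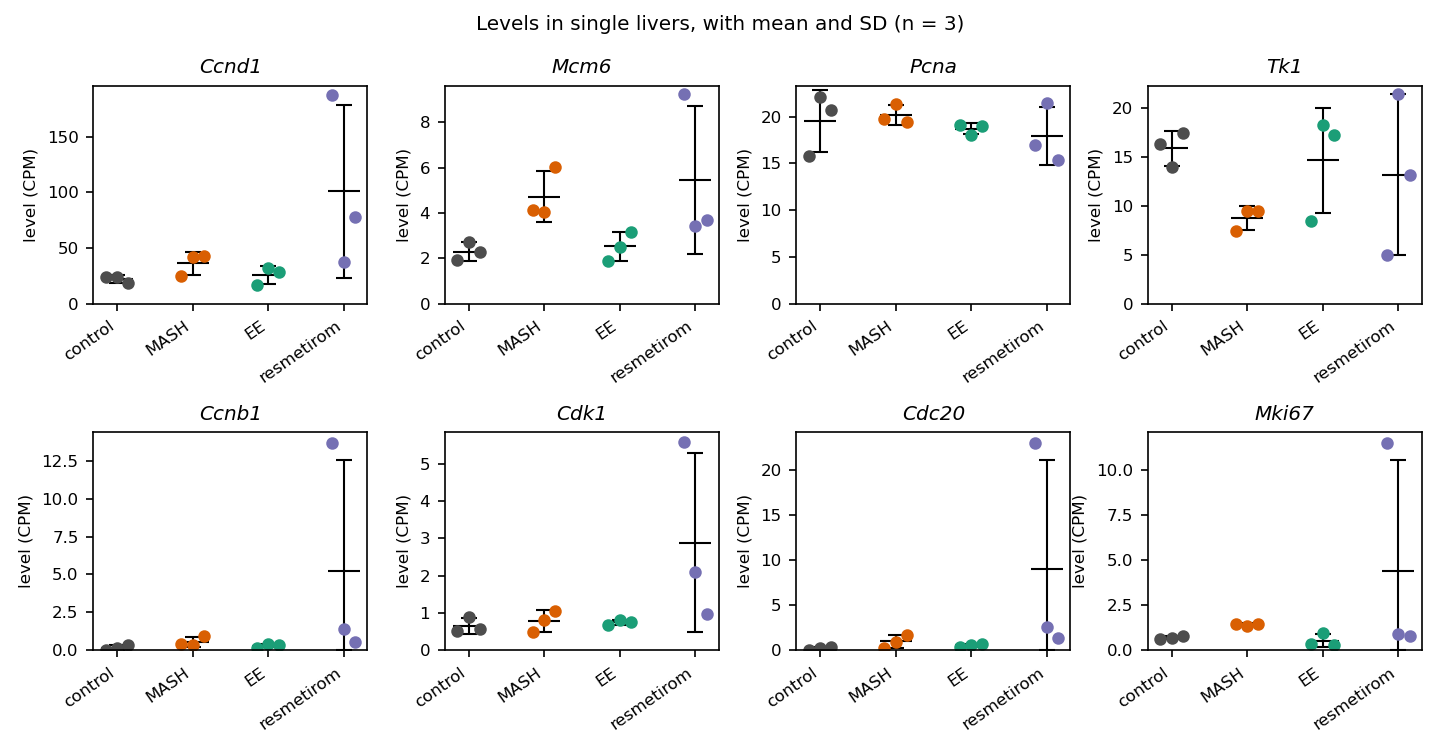
Each panel shows the level in CPM of 1 gene in the 12 livers by group, with a dot per liver, a bar at the mean and whiskers of 1 SD (n = 3) that stop at 0; the 8 genes were picked by hand after their values were seen. Resmetirom 1 is the top dot of its group for Ccnd1, Mcm6, Ccnb1, Cdk1, Cdc20 and Mki67 and the bottom dot for Tk1, and Pcna varies little.

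Resmetirom against EE compares both treatments at their own doses, 3 and 100 mg/kg. The median was 1.65, and 0.37 without resmetirom 1, against 0.08 and 0.03 over all tested genes. Ccnb2 stood at 5.05 ± 6.62 against 0.296 ± 0.155 CPM (SD, n = 3 each), a log2 fold change of 4.09 ± 0.98 (SE, edgeR adjusted p = 0.12). Ccnd1 stood at 101 ± 77.3 against 25.6 ± 7.89 CPM (SD, n = 3 each), a log2 fold change of 1.98 ± 0.48 (SE, edgeR adjusted p = 0.124). Cdc20 and Plk1 had log2 fold changes of 4.08 ± 1.03 and 4.00 ± 1.03 (SE; edgeR adjusted p = 0.135 and 0.136). In all 4 genes each resmetirom liver was above each EE liver. In edgeR 0 of the 40 passed (0.307% of all genes in either direction), 21 were higher at an unadjusted p below 0.05 (7.46% of all genes), and 14 were higher without overlap (9.09% of all genes). Without resmetirom 1, Ccnb2, Ccnd1, Cdc20 and Plk1 were the 4 genes higher at an unadjusted p below 0.05, against 5.52% of all genes. Their log2 fold changes (± SE) were then 2.03 ± 0.68 for Ccnb2, 1.17 ± 0.36 for Ccnd1, 1.87 ± 0.73 for Cdc20 and 2.13 ± 0.84 for Plk1. DESeq2 called 7 (2.93% of all genes in either direction) and limma voom 0.

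Asked whether a gene differed among the 4 groups in any way, edgeR called 1 of the 40, Cdc20 (adjusted p = 0.0444), against 1.6% of all genes. Next were the cyclins Ccnb2 and Ccnb1 (edgeR adjusted p = 0.0553 and 0.0596). DESeq2 called 15 and limma voom 0, and 0 passed in edgeR without resmetirom 1. The 1.6% is edgeR's share, and DESeq2's share of all genes is not given for this question, so its 15 has no background here.

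Other genes of the same processes, in lists chosen with earlier results of these data known, were then compared in the same fit. At an unadjusted p below 0.05, the share of all genes was 3.15% higher and 6.08% lower in MASH against control, 2.34% higher and 5.15% lower in EE against MASH, and 8.18% higher and 6.85% lower in resmetirom against MASH. Of 34 other tested replication genes 0 passed in edgeR in any of the 6 comparisons, with medians of 0.12 in MASH against control, −0.22 in EE against MASH and 0.13 in resmetirom against MASH. At an unadjusted p below 0.05 these comparisons had 2 higher, 3 lower and 0 of the 34, and DESeq2 and limma voom called 0 in each. Rpa2, a subunit that coats single-stranded DNA, stood at 6.33 ± 0.948 against 3.43 ± 0.829 CPM (SD, n = 3 each), a log2 fold change of 0.87 ± 0.23 (SE, edgeR adjusted p = 0.456). Dnmt1, the maintenance DNA methyltransferase, stood at 9.84 ± 1.91 against 6.32 ± 1.56 CPM (SD, n = 3 each), a log2 fold change of 0.63 ± 0.26 (SE, edgeR adjusted p = 0.521). Neither passed, although groups did not overlap. In EE against MASH, Hells, a chromatin remodeller, stood at 0.128 ± 0.084 against 0.695 ± 0.0949 CPM and Pola2, a primase partner, at 4.26 ± 0.964 against 6.39 ± 0.793 CPM (edgeR adjusted p = 0.61 and 0.626).

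The 30 other tested mitosis genes had medians of 0.24 in MASH against control, −0.54 in EE against MASH and 0.63 in resmetirom against MASH, and −0.22 in the last without resmetirom 1. In edgeR 0 passed in each of these 3, and DESeq2 called 0, 0 and 1. At an unadjusted p below 0.05 there were 2 higher in the first (3.15% of all genes higher), 1 higher and 6 lower in the second (2.34% and 5.15%) and 9 higher in the third (8.18%). Spc25, a kinetochore subunit, stood at 1.61, 2.37 and 1.93 CPM in control livers, 4.16, 5.48 and 5.62 in MASH, 3.08, 2.02 and 2.31 in EE and 5.01, 1.2 and 1.79 in resmetirom. It was above control in each MASH liver (log2 fold change 1.35 ± 0.45 SE, edgeR adjusted p = 0.51). Without resmetirom 1, it was the 1 gene of this list that passed in resmetirom against MASH, lower in resmetirom. The share of all genes that passed in that fit is not given, so this call has no background here. Kifc1, a spindle motor, stood at 0.471 ± 0.238 against 0.093 ± 0.0816 CPM in MASH and control (log2 fold change 2.07 ± 0.91 SE, edgeR adjusted p = 0.535). In EE against MASH, Kif18a, a chromosome alignment motor, stood at 0.0364 ± 0.0316 against 0.388 ± 0.132 CPM and Smc4, a condensin subunit, at 2.26 ± 0.503 against 5.22 ± 0.95 CPM (edgeR adjusted p = 0.598 and 0.61). In resmetirom against MASH, Cdca3, a mitotic entry factor, stood at 21.8, 3.97 and 1.74 CPM against 1.14, 1.21 and 1.48, and Cenpa, the centromere histone, at 14.4, 5.32 and 4.10 against 2.41, 3.51 and 3.44 (edgeR adjusted p = 0.112 and 0.185). Both were above MASH in every resmetirom liver. In resmetirom against control, 4 of the 30 rose (Cdca3, Kifc1, Ckap2 and Stmn1, the last 2 named after their values were seen), against 1.41% of all genes that rose, and 0 did without resmetirom 1.

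The 15 tested genes that arrest the cycle had a median of 0.70 in resmetirom 1, and of −0.38 to 0.17 in the other 11 livers, as log2 differences from the MASH mean. Cdkn1a (p21), an inhibitor of cyclin-dependent kinases, stood at 3.32, 1.61 and 3.1 CPM in control livers, 9.32, 3.81 and 5.9 in MASH, 6.67, 2.12 and 2.71 in EE and 82.3, 10.7 and 2.05 in resmetirom. Resmetirom 1 was thus highest for this inhibitor too. Its log2 fold changes were 1.27 in MASH against control, −0.72 in EE against MASH and 2.33 in resmetirom against MASH (edgeR adjusted p = 0.724, 0.894 and 0.281), and the last was −0.01 without resmetirom 1. Cdkn2c (p18), an inhibitor of the cyclin D kinases, stood at 3.32, 3.85 and 3.35 CPM in control livers, 2.03, 2.42 and 2.23 in MASH, 1.69, 3.05 and 2.65 in EE and 7.86, 7.87 and 4.97 in resmetirom. It was the 1 of 15 tested arrest genes that passed in resmetirom against MASH, against 0.665% of all genes in either direction. There it rose (log2 fold change 1.63 ± 0.28 SE, edgeR adjusted p = 0.0275), with resmetirom 1 and resmetirom 2 at the same level. It kept the call without resmetirom 1 (1.52, edgeR adjusted p = 0.0442) and lost it without MASH 1, MASH 2, MASH 3, EE 3 or resmetirom 2 (adjusted p = 0.0593 to 0.147), with no scaling factors (0.33) and in a fit of these groups alone (0.12). Its adjusted p over all alternatives ran from 1.34e-05 to 0.33. Btg2, an antiproliferative gene, stood at 32.9, 12.9 and 7.43 CPM in resmetirom and 7.95, 8.95 and 7.65 in MASH livers (edgeR adjusted p = 0.246).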

How the data were processed

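Poly(A) RNA of 12 mouse livers was read on a NovaSeq X Plus from stranded mRNA libraries, per the labels' protocols. The submitters' processing notes name fastp and the build GRCm39, without versions, and the aligner, the counter, the annotation release and the strand setting were not given in the sources used here. For each Ensembl gene the authors deposited expected counts, with no scaling, and these were rounded to whole numbers here. Symbols came from a GRCm38 gene table that named 22603 of 28036 identifiers, exon lengths from the same annotation (GENCODE M21) and promoters from RefSeq (GRCm38.p6).

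All 12 libraries entered 1 fit in edgeR 4.0.16 (R 4.3.3, filterByExpr, TMM scaling (trimmed mean of M values), quasi-likelihood F test with robust dispersions, Benjamini-Hochberg over 13988 genes, 8 residual degrees of freedom). The biological coefficient of variation was 0.334. The SE is the log2 fold change divided by the square root of F. Log2 levels used a pseudocount of 0.05 CPM, the 1 value tried. The fit was tested on simulated data. Library totals were 17297864 to 21793311 counts, and genes below 1 CPM rest on few of them.

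The 48 genes, the roles, lists, tests and the rule for named genes were chosen with earlier results of these data known. The rule names up to 4 of the 48 with the smallest p in a comparison, 24 taken for their roles, and up to 2 per pathway list in MASH against control, EE against MASH and resmetirom against MASH; 2 genes that it names are not reported here. The direction in which shares of all genes are counted follows that of the 48. The motif words were the 1 set tried. Alternatives were other scalings, DESeq2 1.42.0, limma 3.58.1 (voom), other filters, the compared groups alone, a replicate block and left-out libraries. Equal replicate numbers correlated at 0.13 to 0.17 across genes (deviations from group means) for EE against MASH. In resmetirom against control they ran from −0.325 to 0.247. The labels name no pairing, so whether livers were paired is not known. A block left EE against MASH at 0 calls among the 48, where it also stood without one.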

Additional observations from a re-analysis of the deposited data

How the results depend on the processing

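Results were recomputed under 24 alternatives, or 21 to 23 where a gene was not tested under one or the question needs all 4 groups. The counts below come without the share of all genes called in the same fit, unless that share is given above. The count of the 48 genes called stayed at 0 in MASH against control and EE against MASH under all 24. In resmetirom against control it was 7, and 0 with no scaling factors, limma voom or these groups alone, 1 with a replicate block, 18 with DESeq2 and 4 with control 1 and resmetirom 1 left out; leaving out 1 liver gave 0 to 14. In resmetirom against MASH it was 5 with DESeq2 and 2 with control 1 and resmetirom 2 left out (Ccnd1 and Foxm1). In EE against control DESeq2 called 1. In resmetirom against EE it was 1 with no filter, 7 with DESeq2, 2 with control 1 and resmetirom 2 left out, and 0 to 5 without 1 liver (5 without resmetirom 3). For any difference among the 4 groups it was 0 with no scaling factors, limma voom, the replicate block or control 1 and resmetirom 1 left out, 7 with no filter, 15 with DESeq2, 8 with control 1 and resmetirom 2 left out, and 0 to 7 without 1 liver (2 without resmetirom 2, 7 without resmetirom 3 and 0 without any of 9 others). The cause of these shifts was not tested. Fits with fewer livers also have fewer degrees of freedom, and counts went both up and down among them.

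The median log2 fold change was 1.11 in MASH against control with no scaling factors, and 0.59 to 0.88 without 1 liver. In EE against control it was 0.20 to 0.49 without 1 liver, highest without control 2. In resmetirom against control it was 0.66 to 2.35 without 1 liver and 0.65 with control 1 and resmetirom 1 left out, and in resmetirom against EE 0.37 to 2.00 and 0.36, lowest without resmetirom 1. Cdkn1a reversed in resmetirom against MASH without resmetirom 1 (−0.009) and with control 1 and resmetirom 1 left out (−0.022), and leaving out 1 liver gave −0.009 to 2.88. Equal replicate numbers were closest in 7 of 12 livers. The block changed no call beyond those given. Mitosis genes below 1 CPM rest on few counts, and what difference could be detected at that depth was not tested.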

Other observations

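Genes upstream of the cell cycle stood nearer to the MASH mean in resmetirom 1 than the mitosis genes did. The 23 tested G1 cyclins, kinases and pocket proteins had a median log2 difference from the MASH mean of 0.11 there, and the 20 tested growth signals of liver 0.43. In the other livers the G1 median ran from −0.127 to 0.192 and that of growth signals from −0.156 to 0.077. Resmetirom 1 thus stood above every other liver for growth signals, but not for the G1 list. In the G1 list edgeR called 0 genes in MASH against control, EE against MASH and resmetirom against MASH (DESeq2 called 0, 0 and 1, limma voom 0 in each). At an unadjusted p below 0.05 the list had 0 genes in MASH against control, 1 lower gene in EE against MASH (5.15% of all genes lower), and 2 higher and 2 lower genes in resmetirom against MASH (8.18% and 6.85% of all genes). Skp2, which marks cycle inhibitors for breakdown, stood at 0.993, 0.962 and 0.82 CPM in MASH and 1.91, 1.27 and 1.78 in control livers, and Fzr1, an activator of the anaphase-promoting complex, at 10.7, 10.8 and 12.3 and 5.73, 9.39 and 9.85. Rb1, the retinoblastoma protein that holds E2F factors, stood at 3.7, 4.68 and 3.58 CPM in EE and 6.34, 6.98 and 5.51 in MASH livers, without overlap, and E2f3 at 4.00, 3.87 and 3.98 and 5.77, 7.49 and 6.37. In resmetirom livers E2f4, a repressing E2F factor, stood at 15.4, 21.6 and 17.0 CPM, above all MASH livers at 11.0, 12.9 and 12.5, and Cdk6, a cyclin D kinase, at 13.7, 8.17 and 13.0, below all at 14.2, 20.9 and 21.0. Cdk4, the partner kinase, named after its values were seen, rose in resmetirom against control (log2 fold change 0.63 ± 0.15 SE, edgeR adjusted p = 0.0498, against 1.41% of all genes that rose), and no gene of the list passed there without resmetirom 1.

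Among growth signals edgeR called 0 of 20 in the same 3 comparisons, as did DESeq2 and limma voom, and at an unadjusted p below 0.05 the list had 1 lower gene in MASH against control (6.08% of all genes), 4 higher and 2 lower in EE against MASH (2.34% and 5.15%), and 2 higher and 1 lower in resmetirom against MASH (8.18% and 6.85%). In EE against MASH the list had a median log2 fold change of 0.03, with 11 genes positive and 9 negative. Lifr, the receptor of leukemia inhibitory factor, stood at 144, 325 and 203 CPM in EE and 83.3, 140 and 80.2 in MASH livers (log2 fold change 1.15 ± 0.37 SE, edgeR adjusted p = 0.595). Stat3, which carries interleukin signals, stood at 115, 187 and 119 and 75.1, 72.1 and 78.5 (log2 fold change 0.90 ± 0.33 SE, edgeR adjusted p = 0.61). Neither group pair overlapped. Il6ra, the interleukin 6 receptor, stood at 17.6, 55.1 and 81.3 CPM in control and 22.5, 22.5 and 27.2 in MASH livers, and Egfr at 260, 582 and 227 and 102, 325 and 88.1, both with overlap. Met, the hepatocyte growth factor receptor, stood at 33.0, 21.3 and 45.7 CPM in resmetirom and 59.7, 57.1 and 54.3 in MASH livers, without overlap (log2 fold change −0.77 ± 0.26 SE, edgeR adjusted p = 0.197).

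Of the 15 arrest genes edgeR called 0 in MASH against control and in EE against MASH, as did DESeq2 and limma voom, with 2 and 3 lower at an unadjusted p below 0.05 (6.08% and 5.15% of all genes). In resmetirom against MASH, 4 were higher and 1 lower at that unadjusted p (8.18% and 6.85% of all genes). Gadd45a and Ccng1, stress response genes, stood lower on average in EE than in MASH livers, at 2.98, 1.47 and 1.39 against 2.98, 3.6 and 5.66 CPM and 21.0, 15.6 and 13.8 against 29, 28.8 and 24.6 CPM, with the highest EE liver level with the lowest MASH liver for Gadd45a. Gadd45b stood at 7.54, 0.676 and 1.52 CPM in control livers and 0.804, 0.669 and 0.898 in MASH, control 1 being the high liver.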
